A study of Mus musculus with 6 samples.

Results

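The genes described here are 10 cell adhesion and matrix genes that somite epithelialisation draws on: the cadherins Cdh1, Cdh2 and Cdh11, the adhesion molecule Ncam1, fibronectin Fn1, the integrin subunits Itga5, Itgav, Itgb1 and Itga6, and the proteoglycan Vcan. They were read by 28 of the 22626 probe sets tested, namely every non-control probe set that the platform's annotation assigns to exactly 1 of these symbols. Mouse embryos were taken 9.5 days after conception and cut behind the newest somite, and RNA of the released tail, the presomitic mesoderm level that has yet to segment, was hybridised to Affymetrix MOE430A arrays. There were 3 pools homozygous for the Dll3 neo allele (Dll3neo/neo, also named Dll3tm1Rbe) and 3 wild-type (WT) pools, both of strain C57BL/6 per the labels, with 1 array for each pool. Dll3 belongs to the Delta family of Notch ligands and takes part in segmentation, and the allele was present in every cell of the mutant embryos. The dissected level held tissue of all germ layers, the sources used here do not give the number of embryos in a pool, and 6 arrays limit the precision of every value.

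A somite forms when mesenchymal cells of the presomitic mesoderm turn into an epithelial ball. Cadherins bind neighbouring cells to each other at their apical sides, while a fibronectin matrix around the tissue is bound by integrins, chiefly the receptor made of the Itga5 and Itgb1 subunits and those that hold Itgav. Mouse embryos without fibronectin or without Itga5 have defects of the paraxial mesoderm, and loss of Cdh2 breaks the somite epithelium into fragments.

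The deposited values are ratios. They are scaled to the probe set's median among the 6 arrays for 92.8% of probe sets, and to an unknown divisor for the rest. They show how pools differ for a probe set but give no level that could be ranked between genes. Differences are Dll3neo/neo minus WT on the log2 scale, and p-values are from limma adjusted over all 22626 probe sets. As a check of the labels, Dll3 had ratios of 0.480, 0.476 and 0.537 in Dll3neo/neo pools and 1.46, 1.63 and 2.01 in WT pools (log2 difference -1.76, adjusted p = 0.00691). This call was lost without mutant pool 1, 2 or 3 (adjusted p = 0.0924, 0.0699 and 0.0627) or WT pool 2 (adjusted p = 0.0757), with differences of -1.87 to -1.64 in the sets of 5 pools. Because the values are ratios, the tissue could not be checked for the presence of its markers, only for how they differ between pools. All 8 measured presomitic mesoderm and tail bud markers had negative differences, their median being -0.23, and T was not analysed here. Markers of several other tissues had mostly positive differences: all 10 for heart muscle (median 0.92), 8 of 9 for lateral plate mesoderm (0.26), 6 of 7 for somite (0.11), 8 of 10 for endothelium (0.11), all 5 for neural crest (0.10) and 4 of 6 for primitive blood (0.011). No probe set of these lists passed the test, and their part in the member values was not tested. WT pool 3 stood apart from the other arrays: the SD of its log2 ratios over all probe sets was 0.303, against 0.166 to 0.234 for the other 5. It was the highest of the 6 pools for 34.1% of all probe sets and the lowest for 29.5%. It had the lowest mean ratio of the 6 pools for the markers of neural crest (0.897), lateral plate mesoderm (0.875) and heart muscle (0.837). For somite, endothelium and primitive blood another pool was lowest. For presomitic mesoderm and tail bud WT pool 3 had the highest mean ratio (1.21). In Dll3neo/neo pool 1 the mean ratio of 10 heart muscle markers was 7.37, against 0.837 to 0.973 in the other pools.

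None of the 28 probe sets passed the test in either direction, against 0.00442% of all probe sets, which is Dll3 alone. Every adjusted p was 0.9999 in limma. At an unadjusted p under 0.05 there were 2 of 28, Itga5 1423267_s_at and Vcan 1427257_at, against 1.16% of all probe sets. This count of 2 was 0 without mutant pool 2, 0 without mutant pool 3, 4 without WT pool 1 and 4 without WT pool 3. It was 3 without mutant pool 1 and 2 without WT pool 2. Over all probe sets the count was 262 with all pools, and it also moved when a pool was left out. It was 342, 168 and 352 without mutant pool 1, 2 and 3, and 650, 216 and 718 without WT pool 1, 2 and 3. By sign 19 of 28 were lower and 9 higher in the mutant, where 50.9% of all probe sets were lower, and the median log2 difference was -0.07 against -0.0021 over all probe sets. Without WT pool 3 the split was 13 lower and 15 higher, and the median turned to 0.017. Of all 22626 probe sets, 10685 were lower without that pool, with a median of 0.0082. Probe sets of the same gene share a transcript, so these counts are not counts of independent genes. The mutant and WT values did not overlap for 3 of 28, Itga5 1423267_s_at with higher mutant values and Itgb1 1426918_at and 1426919_at with lower ones, while 5.03% of all probe sets did not overlap, 3.05% with higher and 1.99% with lower mutant values. The 95% intervals of 27 of the 28 differences lay within a 2-fold change either way, the exception being Vcan 1427257_at, and those of 23 lay within 1.5-fold. These intervals were counted for the members only. The median absolute log2 difference was 0.118 over the 28 and 0.073 over all probe sets. The pools hold several cell types, so fewer cells of a type and less RNA per cell cannot be told apart for any of these genes.

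**Figure D1:**
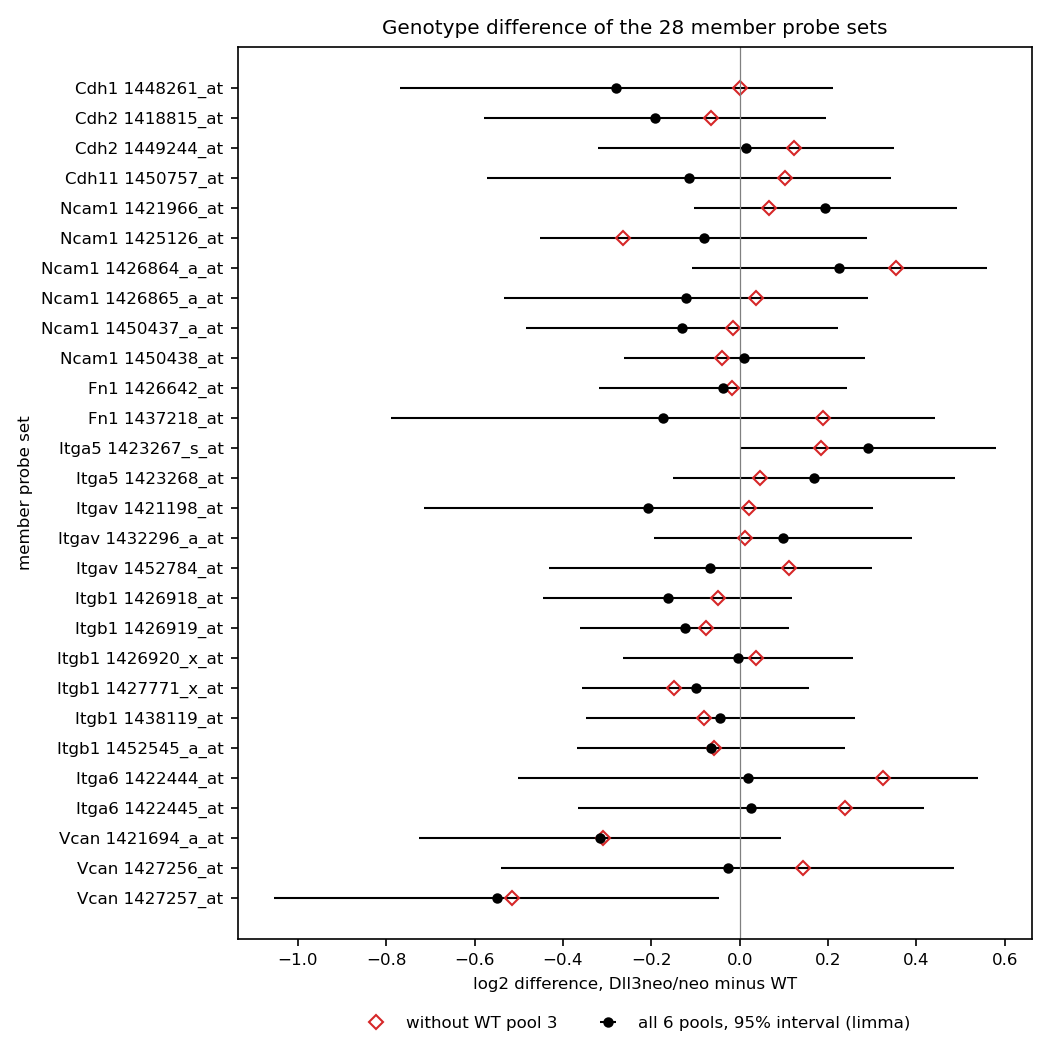
Log2 difference (Dll3neo/neo minus WT, horizontal axis) of each of the 28 probe sets, with filled points and bars for the limma estimate and its 95% interval on all 6 pools and open red diamonds for the estimate without WT pool 3. All intervals but those of Vcan 1427257_at and Itga5 1423267_s_at span 0, and the diamond of Cdh1 lies at 0.

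The regulatory sequence upstream of the gene start is shown for Itga5 and Vcan, the genes with the largest higher and the largest lower difference among the members. Of the 10 genes, 4 (Itga5, Vcan, Itgav and Itgb1) matched the promoter sequences, which are from RefSeq on build GRCm38.p6. The 250 bases before the start are printed 5′ to 3′ on the gene's strand, with capitals marking matches on either strand to the E-box CANNTG, bound by basic helix-loop-helix factors, or to TGGGAA, the core recognised by the Notch effector RBPJ. The Itga5 window is chr15:103366792-103367041 on the minus strand and the Vcan window is chr13:89742513-89742762 on the minus strand.
Itga5: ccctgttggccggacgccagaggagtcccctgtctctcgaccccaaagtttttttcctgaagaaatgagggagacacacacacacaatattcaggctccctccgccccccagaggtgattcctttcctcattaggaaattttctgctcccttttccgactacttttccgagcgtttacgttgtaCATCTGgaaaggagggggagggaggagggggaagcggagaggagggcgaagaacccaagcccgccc
Vcan: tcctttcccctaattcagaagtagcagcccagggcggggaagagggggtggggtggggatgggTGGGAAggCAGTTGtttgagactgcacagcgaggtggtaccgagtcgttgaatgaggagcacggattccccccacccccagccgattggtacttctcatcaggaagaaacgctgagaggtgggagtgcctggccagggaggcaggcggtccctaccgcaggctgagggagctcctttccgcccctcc
The Itga5 window held 1 E-box and no TGGGAA, and the Vcan window held 1 of each. The Itgav and Itgb1 windows held neither motif. Over 32851 promoter windows of the same length, 66.2% held CANNTG, 21.6% held TGGGAA and 17.2% held CAGGTG, a form of CANNTG, which Snail repressors bind and which was in none of the 4 windows. These matches describe letters only.

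Cdh1 encodes E-cadherin, the cadherin of surface ectoderm and gut epithelium, which paraxial mesoderm cells give up when they leave the primitive streak. Its single probe set had ratios of 0.914, 1.14 and 0.961 in Dll3neo/neo pools and 0.966, 1.03 and 1.79 in WT pools. WT pool 3 was far above the other 5, which overlapped between genotypes. The mean was 1.004 ± 0.117 in the mutant and 1.26 ± 0.455 in WT (SD, n = 3 each), a log2 difference of -0.28 (95% interval -0.77 to 0.21, adjusted p = 0.9999 in limma). Without WT pool 3 the difference was -2.2e-04. Of 15 measured markers of surface and gut epithelium, 8 were higher and 7 lower in the mutant by sign, and the mean ratio of the list was 0.923, 1.01 and 1.03 in the mutant pools and 0.925, 1.03 and 1.08 in the WT pools. Among these markers Epcam had 1.22 and Cldn7 1.39 in WT pool 3, both their highest values, while Rab25 had 0.833 there, its lowest. The part of epithelial tissue in the Cdh1 value was not tested.

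Cdh2 encodes N-cadherin, the main cadherin of presomitic mesoderm, somites and neural tube, and was read by 2 probe sets that did not move together over the 6 pools (r = 0.12). Cdh2 1418815_at had ratios of 0.948, 1.05 and 0.793 in Dll3neo/neo pools and 0.832, 1.12 and 1.26 in WT pools. The genotypes overlapped, with WT pool 1 below 2 of the mutant pools. Its log2 difference was -0.19 (95% interval -0.58 to 0.20) and -0.06 without WT pool 3. The other probe set, 1449244_at, had 1.14, 0.847 and 1.06 in the mutant and 0.916, 0.938 and 1.16 in WT, a difference of 0.01 (95% interval -0.32 to 0.35). Of the neural tube, another tissue with N-cadherin, the markers had 3 positive and 4 negative differences among 7 measured genes, their median being -0.0018.

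Cdh11 encodes OB-cadherin, a mesenchymal cadherin that somite cells express as they turn epithelial. Its ratios were 0.978, 1.02 and 0.935 in Dll3neo/neo pools and 0.753, 1.10 and 1.43 in WT pools. The SD was 0.0435 in the mutant and 0.339 in WT (n = 3 each), and the WT pools enclosed the mutant pools, with WT pool 1 the lowest and WT pool 3 the highest of the 6. The log2 difference was -0.11 (95% interval -0.57 to 0.34), and it turned to 0.10 without WT pool 3.

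Ncam1, a homophilic adhesion molecule of the immunoglobulin family found on neural and mesodermal cells, was read by 6 probe sets, 3 with positive and 3 with negative differences. They ranged from -0.13 for 1450437_a_at to 0.23 for 1426864_a_at, and their mean was 0.02. Probe sets 1426865_a_at and 1450437_a_at followed each other closely over the pools (r = 0.96), with 0.788, 1.07 and 0.958 for 1426865_a_at in Dll3neo/neo pools and 1.04, 0.792 and 1.26 in WT pools. In contrast, 1421966_at ran against 1450437_a_at (r = -0.77): it had 1.05, 1.04 and 0.994 in the mutant and 0.955, 1.01 and 0.751 in WT. WT pool 3 was thus the highest pool by 2 Ncam1 probe sets and the lowest by 2, the other being 1425126_at. Which Ncam1 transcripts each probe set reads is not given in the files.

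Fn1 encodes fibronectin, the matrix ligand laid down around the presomitic mesoderm and between forming somites. Its probe set 1426642_at had ratios of 1.05, 0.978 and 0.874 in Dll3neo/neo pools and 1.07, 0.887 and 1.02 in WT pools. These values overlapped throughout, and the log2 difference was -0.04 (95% interval -0.32 to 0.24). Its other probe set, 1437218_at, had 1.21, 0.861 and 1.07 in the mutant and 0.925, 0.897 and 1.93 in WT, the last being the highest member value in any pool. The difference of 1437218_at was -0.17 (95% interval -0.79 to 0.44), and it turned to 0.19 without WT pool 3. The 2 probe sets had r = 0.28 over the pools, and WT pool 3 was high by 1437218_at alone.

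**Figure D2:**
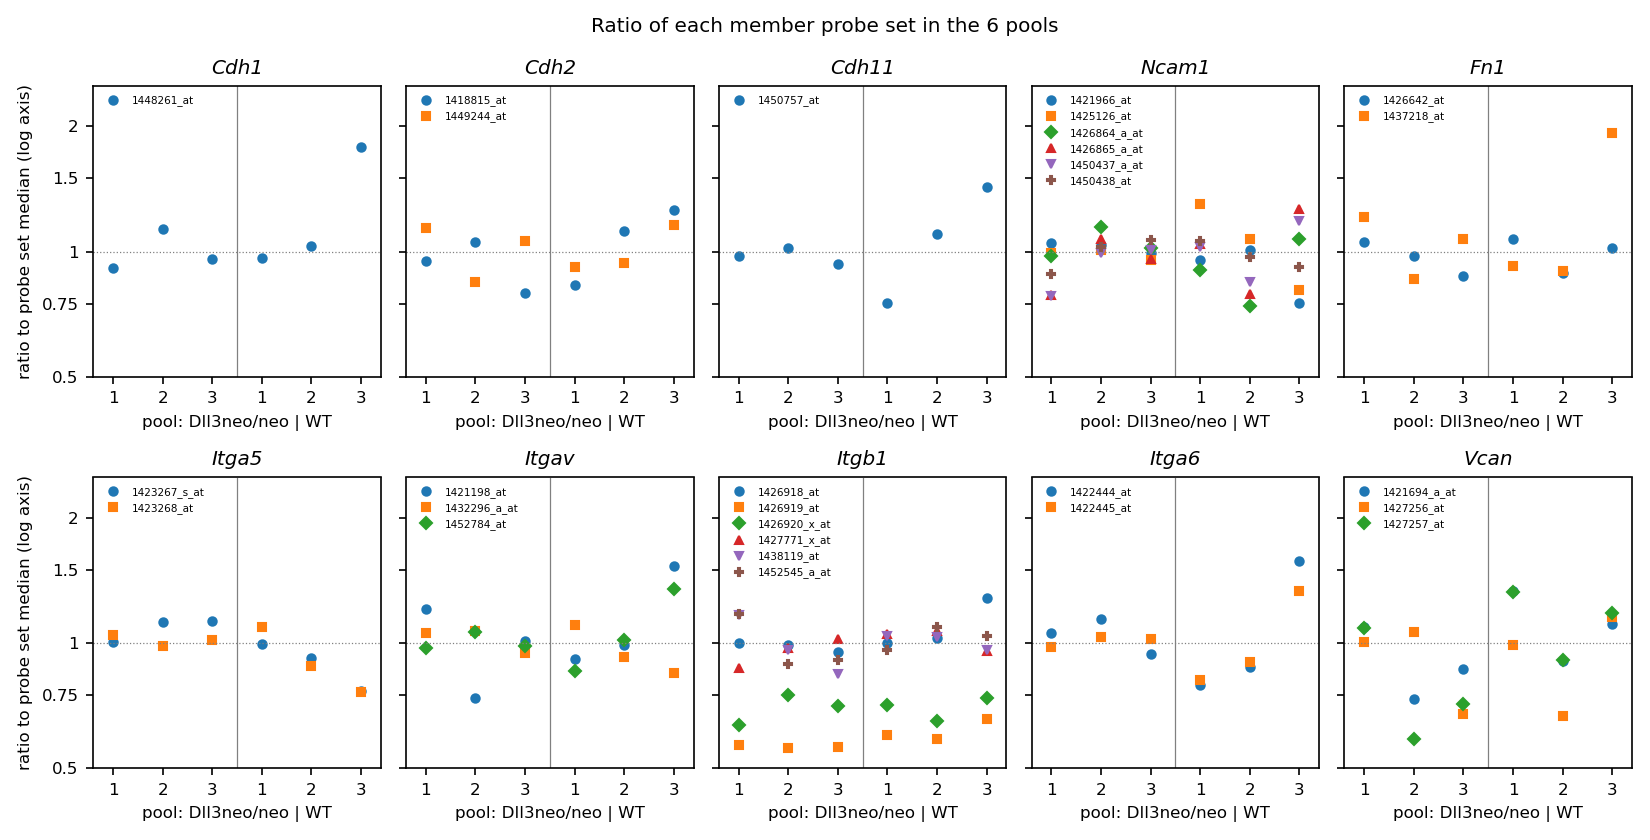
Ratio to the probe set median (vertical log axis) in the 3 Dll3neo/neo pools and the 3 WT pools, left and right of the grey line, 1 panel for each gene and 1 marker for each probe set. WT pool 3 is the highest point for Cdh1, Cdh11 and Itga6 and reaches 1.93 for Fn1 1437218_at, while it is the lowest point for both Itga5 probe sets.

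Itga5 encodes the alpha subunit of the main fibronectin receptor. Its probe set 1423267_s_at had ratios of 1.01, 1.13 and 1.13 in Dll3neo/neo pools and 0.993, 0.920 and 0.765 in WT pools. All mutant values lay above all WT values, although the lowest mutant pool and the highest WT pool were 1.01 and 0.993. The mean was 1.09 ± 0.0690 in the mutant and 0.893 ± 0.116 in WT (SD, n = 3 each), a log2 difference of 0.29 or 1.22-fold (95% interval 5.5e-04 to 0.58, unadjusted p = 0.0496 and adjusted p = 0.9999 in limma). The suffix of this probe set marks probes that Affymetrix designed against sequence shared by several transcripts. The second probe set, 1423268_at, had 1.04, 0.985 and 1.01 in the mutant and 1.09, 0.883 and 0.762 in WT, which overlap, with a difference of 0.17 (95% interval -0.15 to 0.49). The 2 probe sets followed each other over the pools (r = 0.81), and both were lowest in WT pool 3. Without that pool their differences were 0.18 and 0.05.

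Itgb1, the beta subunit that pairs with Itga5, Itga6 and many other alpha subunits, was read by 6 probe sets, and all 6 had negative differences, from -0.16 to -0.0028. The signs of 3 of them, 1426920_x_at, 1438119_at and 1452545_a_at, changed without at least 1 pool. Probe set 1426918_at had ratios of 0.998, 0.991 and 0.954 in Dll3neo/neo pools and 1.002, 1.03 and 1.29 in WT pools. The genotypes did not overlap, but the highest mutant and the lowest WT pool were almost equal. Its difference was -0.16 (95% interval -0.45 to 0.12) and -0.05 without WT pool 3. Probe set 1426919_at had 0.570, 0.561 and 0.562 in the mutant and 0.601, 0.589 and 0.657 in WT, again without overlap, with a difference of -0.12 (95% interval -0.36 to 0.11) and -0.08 without WT pool 3. The 2 probe sets followed each other closely (r = 0.93). The mutant values of 1426919_at were tight, 0.564 ± 0.0049 (SD, n = 3). This probe set and 1426920_x_at are the 2 of 28 whose median over the arrays is below 0.99, as for 7.12% of all probe sets. Their values are thus not ratios to the median of the 6 arrays, and their divisor is not known.

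The other 4 Itgb1 probe sets overlapped between genotypes. Their ratios ran from 0.634 to 0.749 in the mutant and 0.648 to 0.736 in WT for 1426920_x_at. They ran from 0.873 to 1.02 in the mutant and 0.955 to 1.07 in WT for 1427771_x_at. For 1438119_at they ran from 0.845 to 1.17 and for 1452545_a_at from 0.892 to 1.18 in the mutant, against 0.962 to 1.04 and 0.962 to 1.09 in WT. In the last pair the highest value was that of Dll3neo/neo pool 1, the pool with the high heart muscle markers, whose part in these values was not tested. The pair had r = 0.78, while 1452545_a_at and 1426920_x_at had r = -0.82, the most negative of the 40 pairs of probe sets of a same member gene.

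Itgav, the alpha subunit of receptors that also bind fibronectin and vitronectin, was read by 3 probe sets of mixed sign. Probe set 1421198_at had ratios of 1.21, 0.738 and 1.01 in Dll3neo/neo pools and 0.917, 0.988 and 1.53 in WT pools, with a difference of -0.21 (95% interval -0.72 to 0.30) that turned to 0.02 without WT pool 3. Probe set 1452784_at had 0.974, 1.07 and 0.985 in the mutant and 0.857, 1.01 and 1.35 in WT, a difference of -0.07 that turned to 0.11 without that pool. Both were highest in WT pool 3. Probe set 1432296_a_at was lowest there, with 1.05, 1.07 and 0.945 in the mutant and 1.11, 0.926 and 0.848 in WT, and had a difference of 0.10, or 0.012 without that pool.

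Itga6, an alpha subunit of laminin receptors in the basement membrane of somite and myotome, was read by 2 probe sets that agree within 0.01 in their differences, 0.02 (95% interval -0.50 to 0.54) and 0.03 (95% interval -0.37 to 0.42). Probe set 1422444_at had ratios of 1.06, 1.14 and 0.940 in Dll3neo/neo pools and 0.793, 0.877 and 1.57 in WT pools. Probe set 1422445_at had 0.977, 1.03 and 1.02 in the mutant and 0.815, 0.902 and 1.33 in WT. By both, the mutant pools lay between WT pools 1 and 2 on the low side and WT pool 3 on the high side (r = 0.96 between the probe sets). Without WT pool 3 the differences were 0.32 and 0.24. They were -0.17 and -0.12 without WT pool 1, and -0.10 and -0.04 without WT pool 2.

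Vcan encodes versican, a hyaluronan-binding proteoglycan of loose embryonic matrix that restrains adhesion of migrating cells. Its probe set 1427257_at had the largest difference of the 28: 1.09, 0.587 and 0.713 in Dll3neo/neo pools and 1.32, 0.913 and 1.18 in WT pools. Mutant pools 2 and 3 lay below all WT pools, while mutant pool 1 lay above WT pool 2. The mean was 0.796 ± 0.260 in the mutant and 1.14 ± 0.209 in WT (SD, n = 3 each), a log2 difference of -0.55 or 1.46-fold lower (95% interval -1.05 to -0.05, unadjusted p = 0.0355 and adjusted p = 0.9999 in limma). The difference ran from -0.80 without mutant pool 1 to -0.36 without mutant pool 2, and was -0.52 without WT pool 3.

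Vcan 1421694_a_at repeated this order of pools (r = 0.97 with 1427257_at), with 1.09, 0.734 and 0.867 in Dll3neo/neo pools and 1.33, 0.905 and 1.11 in WT pools, and a difference of -0.32 (95% interval -0.73 to 0.09). It was -0.18 without WT pool 1 and -0.18 without mutant pool 2. The third probe set, 1427256_at, had 1.01, 1.06 and 0.676 in the mutant and 0.992, 0.667 and 1.16 in WT, which overlap widely (r = 0.32 with 1427257_at), and a difference of -0.03. Among the 4 probe sets with an absolute difference of at least 0.25, Vcan 1427257_at and 1421694_a_at changed least without WT pool 3. That size was reached by 4.91% of all probe sets. The others of these 4 are Itga5 1423267_s_at and Cdh1. Vcan 1427256_at, which is not among the 4, turned from -0.03 to 0.14 without that pool.

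The genotype difference was smaller than the SD between WT pools for 23 of 28 probe sets, against 78.6% of all probe sets. The median SD of log2 ratios over the 28 probe sets was 0.138 in Dll3neo/neo pools and 0.264 in WT pools, against 0.122 and 0.166 over all probe sets. The WT spread exceeded the mutant spread in 20 of 28, where 63.7% of all probe sets did so. WT pool 3 held the highest value for 14 of 28 (34.1% of all probe sets) and the lowest for 5 (29.5% of all probe sets). Without it, the median difference over all probe sets was 0.0082. No cause of the WT pool 3 values was tested.

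**Figure D3:**
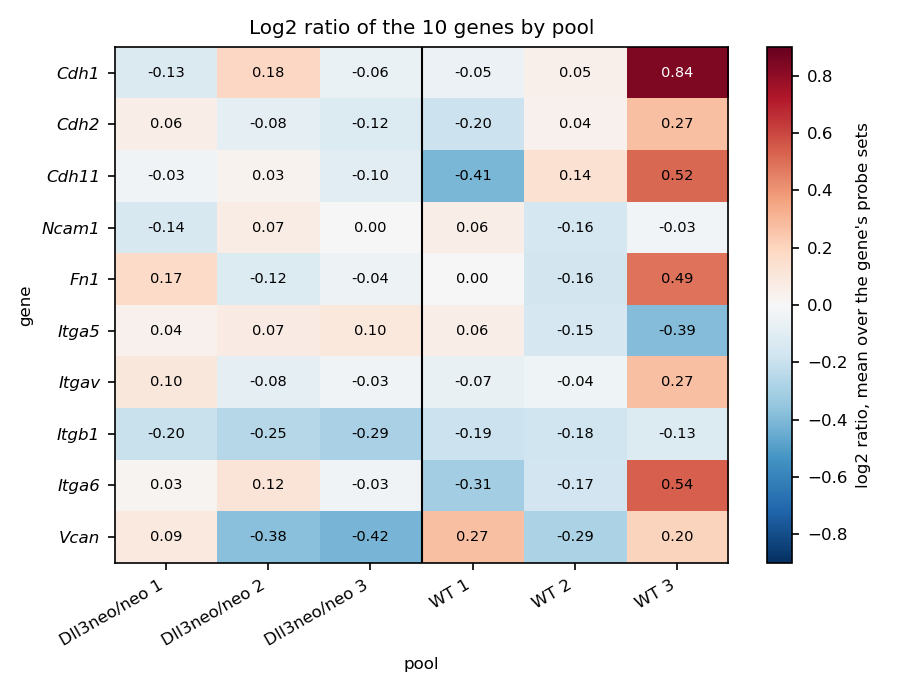
Log2 ratio of each gene (rows), averaged over its probe sets, in the 3 Dll3neo/neo and 3 WT pools (columns), with red above and blue below a ratio of 1. WT pool 3 reaches 0.84 for Cdh1, 0.54 for Itga6 and 0.52 for Cdh11 and is -0.39 for Itga5; the Itgb1 row is low throughout because 2 of its 6 probe sets have medians below 1.

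Averaged over its probe sets, each gene gave a profile over the 6 pools, and these profiles are compared as a description of 6 arrays that share WT pool 3. The averages join probe sets that could disagree, with r = 0.28 for the Fn1 pair and 0.12 for the Cdh2 pair. Among Itgav probe sets r ran from -0.78 to 0.59, and among Itgb1 probe sets from -0.82 to 0.93. Fn1 and Itgav had r = 0.96, Cdh2 and Cdh11 0.93, and Cdh1 and Itga6 0.86. Itga5 ran against them, with r = -0.89 to Cdh2, -0.86 to Cdh1 and -0.68 to Fn1, its ligand. Itga5 and Itgb1, subunits of the same receptor, had r = -0.84. Over the gene means, the differences ran from -0.30 for Vcan and -0.28 for Cdh1 through -0.11 to 0.02 for the middle members to 0.23 for Itga5. The widest gap between neighbours in that order, 0.21 between Itga6 and Itga5, compares with standard errors of 0.193 and 0.124 for these genes.

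The genes whose pool profile was most like that of Fn1, among 12392 others, were Hemgn (r = 0.99), Wwp1 (0.99) and Hapln1 (0.99). Those most like Itga5 were Mmp1a (r = 0.999), Chrna4 (0.99) and Apom (0.99). For Cdh2 they were Strn3, Dusp11 and Mis12 (r = 0.99 each), and for Cdh1 Pbdc1, Spice1 (r = 0.997 each) and Akirin1 (0.996). Such values are common with 6 points: 749 genes had r of at least 0.9 with Cdh1, 326 with Cdh2, 269 with Itga5 and 146 with Fn1.

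Other adhesion genes were measured beside the members, and none of their probe sets passed the test in either direction. Of 19 cadherin, protocadherin and catenin genes, 8 were higher and 11 lower in the mutant by sign (median log2 difference -0.03), with 0 of 36 probe sets at an unadjusted p under 0.05 in limma. The extremes were Pcdh8 (0.23), the protocadherin of the anterior presomitic mesoderm, and Pcdh7 (-0.19). Of 12 other integrin subunits, 9 were higher and 3 lower (median 0.06), from Itga8 (0.17), a subunit of another receptor that can bind fibronectin, to Itga7 (-0.07), with 0 of 22 probe sets at an unadjusted p under 0.05 in limma. The median log2 ratio of these subunits was -0.22 in WT pool 3 and between -0.01 and 0.03 in the other pools. Over all 12393 genes, 48.9% were lower and the median was 0.0028.

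Integrin adaptors, which join the receptor tails to actin, had 10 of 17 genes higher and 7 lower (median 0.08). Of their 31 probe sets, 7 did not overlap between genotypes, against 5.03% of all probe sets. The same count was 0 of 36 for cadherins, protocadherins and catenins and 1 of 22 for other integrin subunits. It was 3 of 46 for matrix and basement membrane genes and 0 of 36 for regulators of somite epithelialisation. Parva, an actin-binding partner of integrin-linked kinase, had the highest value of that list (0.25). Its ratios, averaged on the log2 scale over 2 probe sets, were 1.16, 1.08 and 1.01 in Dll3neo/neo pools and 0.938, 0.892 and 0.9 in WT pools, without overlap. Lims1, which binds the same kinase, had the lowest (-0.26), with 0.864, 0.710 and 1.05 in the mutant and 1.005, 0.995 and 1.11 in WT. At an unadjusted p under 0.05 in limma there were 3 of the 31 adaptor probe sets, against 1.16% of all probe sets.

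Matrix and basement membrane genes had 14 of 26 higher and 12 lower (median 0.01), with 2 of 46 probe sets at an unadjusted p under 0.05 in limma, against 1.16% of all probe sets. The largest value was 0.32 for Sparc, a collagen-binding matrix protein, which had 1.10, 1.13 and 1.02 in Dll3neo/neo pools and 0.718, 0.980 and 0.916 in WT pools, without overlap. The lowest was -0.20 for the basement membrane protein gene Nid2, at 0.942, 1.01 and 0.985 in the mutant and 1.04, 0.884 and 1.54 in WT, where WT pool 3 was again the high pool. Regulators of somite epithelialisation and of epithelial-mesenchymal transition had 7 of 20 higher and 13 lower (median -0.02, 0 of 36 probe sets at that level), from Meox1 (0.35), a somite homeobox gene, to Mesp2 (-0.18), which sets the segment boundary.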

How the data were processed

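The deposited values are linear ratios, 1 column for each of 6 arrays. The median over the arrays was computed to learn the divisor, and it is 1 within 0.0011 for 92.8% of 22626 probe sets, below 1 for the rest and above 1 for 0. The submitters' processing notes list RMA and MAS5 without saying what each did, so summarisation, background correction and normalization between arrays are not given in the sources used here. Low intensity could not be used as a filter.

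The 64 control probe sets were left out. Genotypes were compared on log2 of the ratio by two-sided moderated tests in limma 3.58.1 under R 4.3.3 (functions lmFit and eBayes, no covariate beside genotype) and Benjamini-Hochberg adjustment at 0.05. An exact permutation test of 3 against 3 pools cannot go below 0.10 and was not used. P-values weigh each genotype difference against the spread between these pools, moderated over all probe sets.

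Members and gene lists were chosen with earlier results of these data known. All member probe sets are named, with Dll3, the highest and lowest gene of each list by mean difference, and the 3 genes most like Fn1, Itga5, Cdh2 and Cdh1 by Pearson r. Epcam, Cldn7 and Rab25 were named after their values were seen. The platform annotation gives 20380 probe sets 1 symbol, 691 several and 1555 none, and symbols were updated through RefSeq GRCm38.p6. Alternatives were normalization, log offsets, a filter on medians, variance models, array weights, a block for the replicate number, and fits without each pool. Deviations of equally numbered pools from their group means correlated at 0.21, 0.02 and 0.17 over probe sets, against -0.21 to 0.08 for unequally numbered pools. The labels give the numbers no further meaning, so equally numbered pools were not treated as pairs in the main fit.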

Additional observations from a re-analysis of the deposited data

How the results depend on the processing

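Dll3 was the 1 call over all probe sets, and it stayed 1 with array medians centred, the offsets 1 and 0.25, the median filter, a variance trend, robust variances and the replicate block. There were 2 calls with quantile normalization and 4 with array weights, and 0 to 1 without a pool in turn. Under each of these alternatives 0 member probe sets passed, the lowest adjusted p being 0.123 in limma. The 2 members at an unadjusted p under 0.05 became 7 with array weights, 1 with array medians centred, 1 with the median filter and 0 to 4 without a pool in turn. Over all probe sets fitted, the count at that level was 262 in the main fit and 3641 with array weights. It was 261 with array medians centred, 224 with the median filter and 168 to 718 without a pool in turn. With the replicate number as a block, the Dll3 log2 difference was -1.76 (adjusted p = 0.00713) and no member call changed. Under that block 2 members had an unadjusted p under 0.05 in limma, Vcan 1427257_at (0.00248) and Vcan 1421694_a_at (0.0192). Itga5 1423267_s_at had 0.0601 there, and 434 of all probe sets were under 0.05. The array weights rest almost wholly on WT pool 2 (weight 83.9, against 0.137 to 0.756 for the other pools). They turned the sign of Ncam1 1426865_a_at (0.26) and 1450437_a_at (0.14), Fn1 1426642_at (0.12) and 1437218_at (0.18), Itgb1 1426920_x_at (0.11) and Vcan 1427256_at (0.44). Quantile normalization turned that of Ncam1 1450438_at (-2.1e-04) and Vcan 1427256_at (0.022), and the offset 1 that of Itga6 1422444_at (-0.0061). The mean over a gene's probe sets has the opposite sign to Cdh2 1449244_at (-0.088), to the 3 Ncam1 probe sets with negative differences (0.016) and to Itgav 1432296_a_at (-0.059). The other 17 members kept their sign with all pools. Leaving out 1 pool turned the sign of 15 members, whose log2 differences then ran from -0.074 to 0.14 for Cdh2 1449244_at, -0.36 to 0.10 for Cdh11 1450757_at, -0.26 to 0.078 for Ncam1 1425126_at, -0.30 to 0.038 for Ncam1 1426865_a_at, -0.045 to 0.093 for Ncam1 1450438_at, -0.12 to 0.034 for Fn1 1426642_at, -0.37 to 0.19 for Fn1 1437218_at, -0.37 to 0.021 for Itgav 1421198_at, -0.22 to 0.11 for Itgav 1452784_at, -0.057 to 0.064 for Itgb1 1426920_x_at, -0.17 to 0.065 for Itgb1 1438119_at, -0.19 to 0.0067 for Itgb1 1452545_a_at, -0.17 to 0.32 for Itga6 1422444_at, -0.12 to 0.24 for Itga6 1422445_at and -0.26 to 0.18 for Vcan 1427256_at. The other 13 kept their sign without each pool. The cause of these shifts was not tested. How bright a probe set is, and so how far signal over background limits it, is not known from ratios.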
